A study of Mus musculus with 8 samples.

Results

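The genes described here are 9 members of the ADP-ribosylation machinery in mouse MC38 cells: Parp1, Parp2, Parp8, Parp9, Parp10, Parp11, Parp12, Parp14 and Dtx3l. They were found by their gene names among the 20432 genes that both deposited expression tables list, and all 9 were present. These members, and the gene lists used later, were chosen with earlier results of these data known. MC38 is a mouse colon adenocarcinoma line. Poly(A)-selected RNA was sequenced in 4 groups of 2 samples: control (labelled wild type) and DENR knockout (KO) cells, each either untreated or treated with 20 ng/ml interferon gamma (IFNγ) for 4 h. The knockout was made with Cas9 and a guide RNA, and the labels do not say whether the 2 KO samples carried the same guide, or whether 2 samples of a group came from separate cultures, so the p-values measure the spread between these samples. DENR is a translation re-initiation factor, and the comparison asked which transcripts of IFNγ-treated cells depend on it.

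PARP enzymes transfer ADP-ribose from NAD+ onto proteins. Parp1 and Parp2 are nuclear enzymes that build poly(ADP-ribose) chains at DNA breaks, and they are expressed in most cells without a stimulus. Parp10, Parp11, Parp12 and Parp14 transfer single ADP-ribose units, and Parp9 and Parp14 also carry macrodomains, which bind ADP-ribose. Dtx3l is a ubiquitin ligase of the deltex family that forms a complex with Parp9. Interferons act through the JAK-STAT signaling pathway, and several of these genes are textbook interferon-stimulated genes with antiviral roles.

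Each sample held between 17369020 and 18403790 reads on genes, and the values are read counts divided by 1 size factor per sample (0.976 to 1.02), called normalized counts here. Denr itself checked the labels: the KO samples had 67.1% of the control level with IFNγ and 67.8% untreated, so the transcript persisted at a lower level, and protein was not measured in these files. The 3 mesenchymal genes Vim, Fn1 and Col1a1 summed to between 125475 and 133402 normalized counts in untreated samples, to 104084 and 104502 in treated controls and to 110250 and 114358 in treated KO samples. Of them, Fn1 was higher in treated KO cells (log2 fold change 0.33, adjusted p = 0.0022 by limma), and its part in the results that follow was not tested. Of the 6 epithelial markers, Epcam and Cldn4 were not listed in either table and the rest summed to at most 24.5 normalized counts, so the epithelial origin of an adenocarcinoma line was not visible in these transcripts. The listed leukocyte markers summed to at most 6.12 and the endothelial markers to at most 31.2.

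Parp14, Dtx3l and Parp9 lie together on chromosome 16 (GRCm38 coordinates). Parp14 (ENSMUSG00000034422) covers chr16:35832874-35871544 on the minus strand. Dtx3l (ENSMUSG00000049502) covers chr16:35926511-35939151 on the minus strand, and Parp9 (ENSMUSG00000022906) covers chr16:35938470-35972605 on the plus strand, so the latter pair starts head to head with 682 bases in common. Parp12 (ENSMUSG00000038507, chr6:39086410-39118349, minus strand) and Parp11 (ENSMUSG00000037997, chr6:127446840-127494261, plus strand) are far apart on chromosome 6. Parp10 (ENSMUSG00000063268) covers chr15:76231174-76243441 on the minus strand, and Parp8 (ENSMUSG00000021725) covers chr13:116854820-117025537 on the minus strand. The constitutive pair is Parp1 (ENSMUSG00000026496, chr1:180568924-180601254, plus strand) and Parp2 (ENSMUSG00000036023, chr14:50807841-50821301, plus strand).

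Promoter sequence of 6 members was taken from RefSeq (GRCm38.p6), as 250 bases before to 50 after each annotated start. The members without an entry were Parp9, Parp10 and Parp14. The windows were searched on both strands for the gamma-activated site TTCNNNGAA, a sequence element of IFNγ-responsive promoters, and for the interferon-stimulated response element core GAAANNGAAA, bound by interferon regulatory factors. Across 32851 mouse promoters of the same length, 8.30% held the former, 3.44% the latter and 0.454% both. Parp11 held both in the window of its upstream start, and the 2 matches overlap each other. Because Parp11 was the one member with a match, these 2 stretches are printed with 10 bases on each side, read on the plus strand, with the matched letters in capitals. The match to the core is its reverse complement.

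Parp11 gamma-activated site, chr6:127446793-127446821: tagtttcgatTTCTTGGAAcccgtggcat

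Parp11 response element core, chr6:127446786-127446815: ttccttttagTTTCGATTTCttggaacccg

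The first capital lies 37 bases before the annotated start in the former and 44 bases before it in the latter. These letters were not in the windows searched for Parp1, Parp2, Parp8, Parp12 and Dtx3l, nor in that of the downstream Parp11 start. A match describes letters in a window and not a site in use, and a window without a match does not show that a gene lacks such an element. The RefSeq starts can also differ from the gene spans given above. For Dtx3l the window was placed on a start at 35939027, while the span begins at 35939151 on the minus strand.

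With IFNγ, 6 of the 9 transcripts were lower in DENR KO than in control samples and none was higher. No member was higher at an unadjusted p under 0.05 by limma, and none was higher at an adjusted p under 0.05 by edgeR or DESeq2. Parp14, Dtx3l and Parp9 fell most, to 59.0%, 65.6% and 68.9% of the control level. Parp10, Parp11 and Parp12 fell less, to between 77.6% and 80.8%. Parp1, Parp2 and Parp8 did not pass the test. The test was limma on log2(normalized count + 1) over 13928 genes with Benjamini-Hochberg adjustment, and a gene passed at an adjusted p under 0.05. Over all genes tested, 2.25% passed as lower and 1.8% as higher. The median log2 fold change was -0.36 over the 9 members and -0.00036 over all genes tested. In 8 of the 9 members both KO samples lay below both control samples, against 20.8% of all genes tested, and in none were both above, against 21.1%. Because the members were chosen with earlier results known, setting them against all genes is a description and not a test of the family.

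Parp14, a mono-ADP-ribosyltransferase with macrodomains, had 6910.2 and 6968 normalized counts in the 2 IFNγ-treated control samples and 4074 and 4114 in the treated KO samples. Both KO samples lay far below both controls, and the samples of each group were within a few percent of each other. The log2 fold change of KO over control was -0.76 ± 0.054 (SE, 2 samples per group), with an adjusted p of 1.5e-09 by limma. Untreated control samples had 382 and 386 normalized counts of Parp14, and untreated KO samples 406 and 384. These groups overlapped, and the untreated log2 fold change was 0.04 with a 95% confidence interval from -0.18 to 0.26.

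Dtx3l, the ubiquitin ligase partner of Parp9, had 3652 and 3829 normalized counts in treated controls and 2432 and 2471 in treated KO cells. Its groups did not overlap, and the log2 fold change was -0.61 ± 0.060 (SE) with an adjusted p of 2.3e-07 by limma. Untreated control samples had 404 and 412 normalized counts of Dtx3l. The untreated KO samples, at 415 and 429, were both slightly above, with a log2 fold change of 0.05 and an interval from -0.16 to 0.26.

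Parp9, which pairs with Dtx3l, had 3463 and 3631 normalized counts in treated controls and 2459 and 2424 in treated KO cells. The groups were again apart, with a log2 fold change of -0.54 ± 0.060 (SE) and an adjusted p of 1.7e-06 by limma. In untreated cells Parp9 stood at 345 and 361 normalized counts in controls and 333 and 374 in KO cells. The KO samples enclosed the control samples there, and the log2 fold change was -0.00094 with an interval from -0.23 to 0.23. These 3 genes were the members that passed with a log2 fold change beyond 0.5, which 1.03% of all genes tested did in the same direction.

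**Figure D1:**
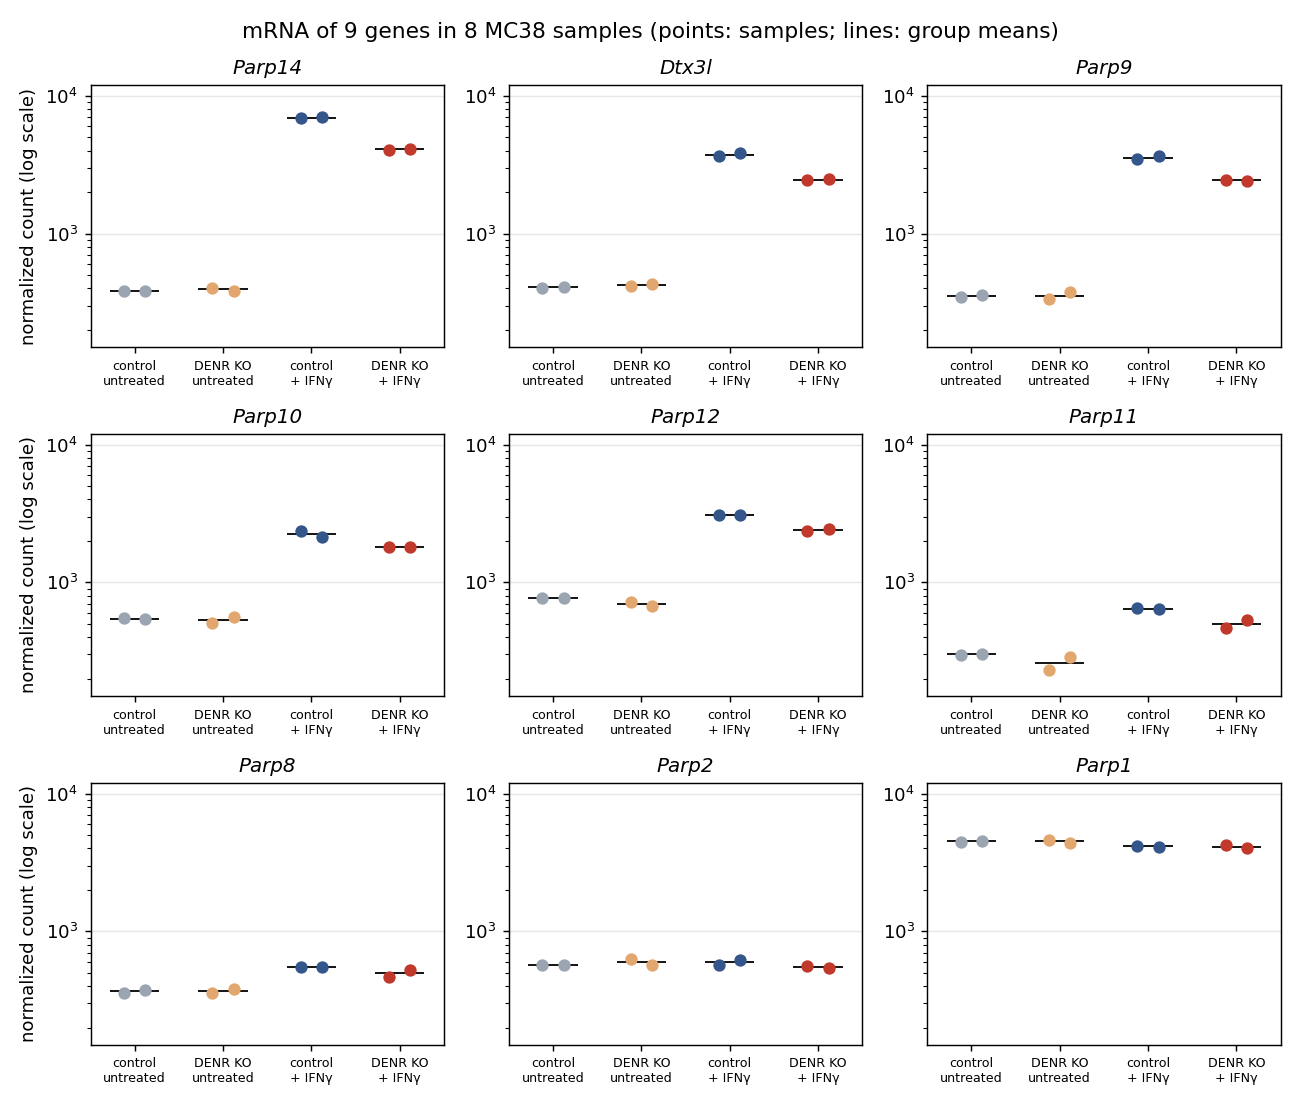
Normalized counts of the 9 genes in each of the 8 samples, on a log axis; points are samples and horizontal lines are group means of 2 samples. Parp14, Dtx3l and Parp9 lie between 333 and 429 normalized counts in all untreated samples, and with IFNγ their KO samples lie below their control samples, while the Parp1 and Parp2 samples of all 4 groups lie close together.

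Parp12, a zinc-finger mono-ADP-ribosyltransferase, had 3097 and 3098 normalized counts in treated controls and 2378 and 2458 in treated KO cells. The log2 fold change was -0.36 ± 0.060 (SE) with an adjusted p of 4.9e-04 by limma. Untreated samples had 769.7 and 769.5 normalized counts in controls and 726 and 669 in KO cells. The untreated KO samples were both below the controls as well, with a log2 fold change of -0.14 that did not pass (adjusted p = 0.64 by limma).

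Parp10, a mono-ADP-ribosyltransferase, had 2349 and 2140.4 normalized counts in treated controls and 1822 and 1804 in treated KO cells. It fell by 0.31 ± 0.066 on the log2 scale (adjusted p = 0.0059 by limma). Without control replicate 1, the higher of the 2 control samples, the log2 fold change was -0.24 and the adjusted p was 0.094 by limma. Here and wherever 1 sample is left out, the lone sample of its group is assumed to vary like the other groups in the fit. Untreated samples overlapped, with 548 and 539 normalized counts in controls and 504 and 558 in KO cells.

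Parp11, a mono-ADP-ribosyltransferase and the member whose promoter matches are printed above, had 649.6 and 639 normalized counts in treated controls and 470.4 and 531 in treated KO cells. It fell by 0.37 ± 0.093 on the log2 scale (adjusted p = 0.022 by limma). This call was lost without control replicate 1 (adjusted p = 0.057), without KO replicate 1 (-0.28, adjusted p = 0.31), with all 8 samples in 1 limma fit (adjusted p = 0.074) and in DESeq2 (adjusted p = 0.12). Untreated KO samples had 233 and 288 normalized counts against 299 and 301 in controls, both lower, with a log2 fold change of -0.21 that did not pass (adjusted p = 0.63 by limma).

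Parp8, a little-studied mono-ADP-ribosyltransferase, had 547 and 555 normalized counts in treated controls and 469 and 526 in treated KO cells. Both KO samples were lower, but the log2 fold change of -0.15 did not pass (adjusted p = 0.56 by limma, 95% interval from -0.34 to 0.05). Untreated Parp8 lay between 355 and 381 normalized counts in all 4 samples.

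The constitutive members did not pass. Parp1, the main poly(ADP-ribose) polymerase, had 4149.8 and 4105 normalized counts in treated controls and 4226 and 4020.0 in treated KO cells. Its KO samples enclosed the control samples, and the log2 fold change was -0.0020 with an interval from -0.12 to 0.12 (adjusted p = 0.99 by limma). Parp2 had 568 and 619 normalized counts in treated controls and 558 and 537 in treated KO cells, a log2 fold change of -0.11 with an interval from -0.30 to 0.07 (adjusted p = 0.67 by limma).

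Without IFNγ, none of the 9 transcripts passed the test for DENR KO. Across 13998 genes, 0.15% passed as lower and 0.429% as higher by limma with Benjamini-Hochberg adjustment. By limma the count was 0 of 9 members, also at an unadjusted p under 0.05. At an adjusted p under 0.05 it was 0 with edgeR and with DESeq2. The members' log2 fold changes ran from -0.21 (Parp11) to 0.08 (Parp2), with a median of 0.00035 against 0.0019 over all genes tested. Parp11 and Parp12 had both KO samples below both controls, where 19.6% of genes did, and Dtx3l had both above, where 20.4% did.

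The KO effect itself differed between treated and untreated cells for Parp14, Dtx3l and Parp9. The difference of the 2 log2 fold changes, tested as an interaction in limma over all 8 samples, was -0.80 ± 0.092 (SE) for Parp14 (adjusted p = 2.5e-05), -0.66 ± 0.098 for Dtx3l (adjusted p = 6.4e-04) and -0.54 ± 0.107 for Parp9 (adjusted p = 0.016). Over 13998 genes, 0.429% passed in this direction and 0.0214% in the other. The Parp9 call was lost without control with IFNγ replicate 2, without either KO with IFNγ replicate, or without KO untreated replicate 2 (adjusted p from 0.073 to 0.17 by limma), while those of Parp14 and Dtx3l passed without each sample in turn.

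For the other members the difference did not pass. It was -0.27 for Parp10 (95% interval from -0.49 to -0.05, adjusted p = 0.63 by limma) and -0.21 for Parp12 (from -0.41 to -0.02, adjusted p = 0.78). The interval of Parp11 ran from -0.47 to 0.17 and that of Parp8 from -0.44 to 0.13. Thus the fall of Parp10, Parp11 and Parp12 with IFNγ was not shown to differ from their untreated KO effect. Parp2 had a difference of -0.19 (from -0.45 to 0.07) and Parp1 one of -0.0023 (from -0.16 to 0.16).

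**Figure D2:**
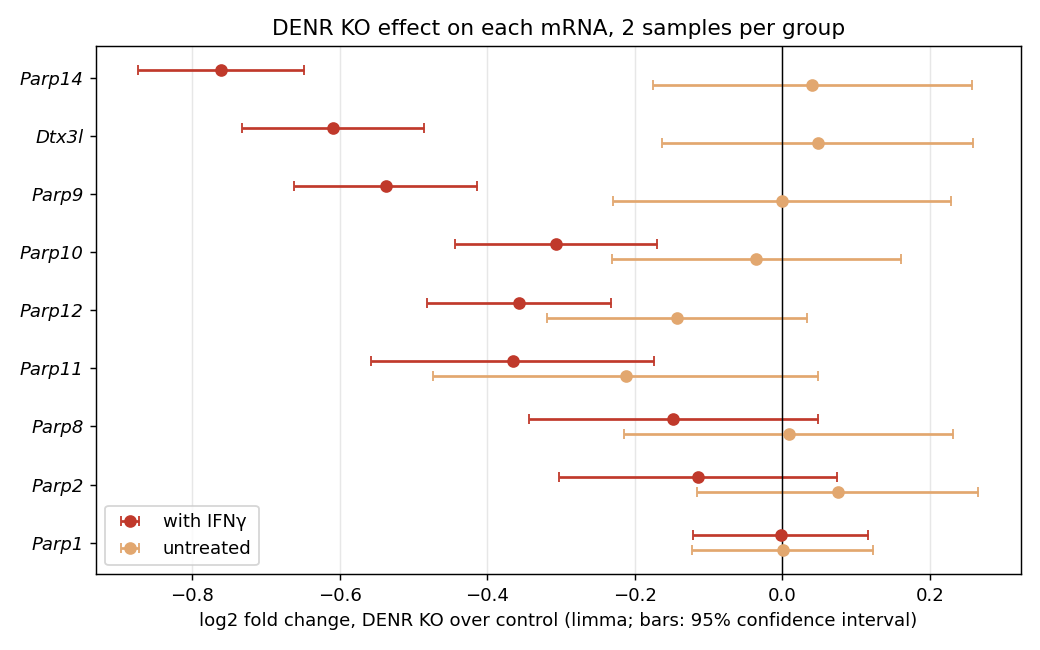
Log2 fold change (DENR KO against control) of each gene with IFNγ and untreated, from limma with 2 samples per group; bars are 95% confidence intervals and the vertical line marks no change. With IFNγ the values run from -0.76 (Parp14) to -0.0020 (Parp1), and all 9 untreated intervals include 0.

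All these calls rest on limma with a mean-variance trend and robust moderation. In limma without both, no gene passed in the whole table in any of the 3 comparisons, and the adjusted p of the 6 members that fell ran from 0.17 to 0.33. On recovered read counts, edgeR called the same number of members lower with IFNγ (6) and DESeq2 called 5. Over all genes, edgeR called 319 lower with IFNγ and DESeq2 called 241, against 314 in the main limma fit. In these bulk samples, fewer responding cells and less RNA per cell cannot be told apart.

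The size of the IFNγ response was read from the group means, as a description without a test, since the treated and untreated tables were normalized separately. Among the 10415 genes averaging 100 normalized counts or more, the median log2 ratio of treated over untreated was -0.079 in control cells and -0.078 in KO cells. In control cells the ratio was 18.1-fold for Parp14, 10.04-fold for Parp9 and 9.16-fold for Dtx3l. Ratios this high were rare, since 1.06% of those genes had a log2 ratio over 2 in control cells. Parp10 and Parp12 had 4.13-fold and 4.03-fold ratios, Parp11 a 2.15-fold and Parp8 a 1.504-fold ratio.

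In KO cells the same ratios were lower for every one of these 7 genes, although the sample pairs of the 2 genotypes overlapped for Parp11 and Parp8. High ratios were fewer in KO cells over all genes averaging 100 normalized counts or more. Log2 ratios over 1 were held by 2.42% of them in control and 1.815% in KO cells, and over 2 by 1.06% and 0.797%. The share of all genes with a lower ratio in KO cells was not counted. Parp14 had a 10.4-fold ratio, Parp9 a 6.91-fold and Dtx3l a 5.81-fold ratio. The gain in normalized counts on IFNγ in KO cells was 56.4% of the control gain for Parp14, 60.9% for Dtx3l and 65.4% for Parp9. For Parp11, Parp8, Parp12 and Parp10 it lay between 69.8% and 75.3%. The order of the members by ratio, from Parp14 through Parp9, Dtx3l and Parp10 or Parp12 to Parp11 and Parp8, was alike in both genotypes, and Parp10 and Parp12 could not be separated by their sample pairs. Parp1 had log2 ratios of -0.12 in control and -0.13 in KO cells, near the median of all genes.

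**Figure D3:**
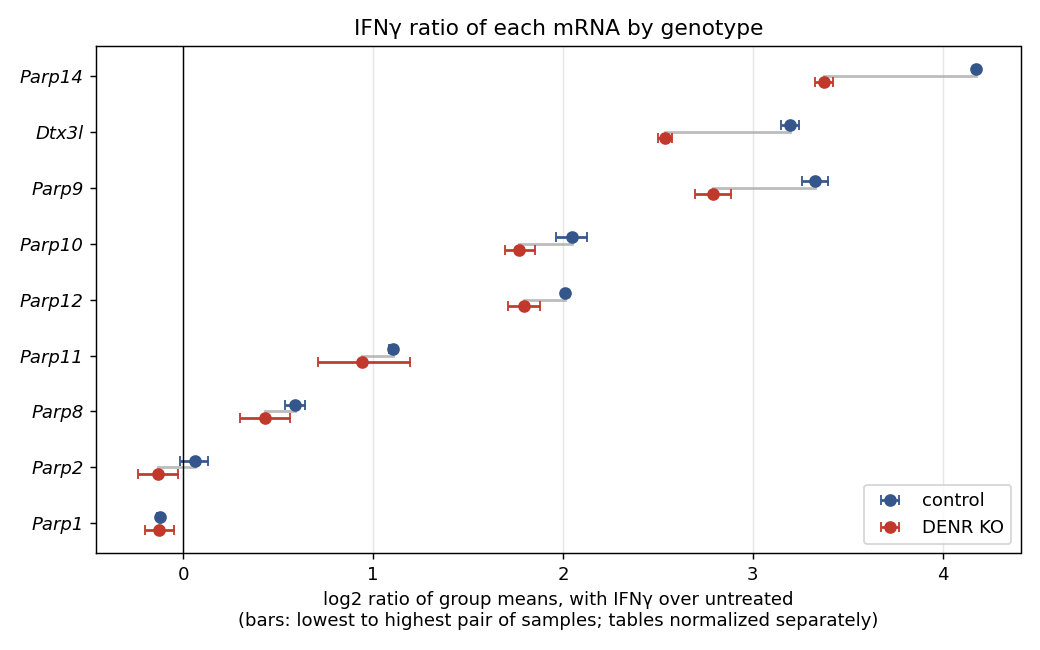
Log2 ratio of the group means with IFNγ over untreated for each gene in control and DENR KO cells; bars run from the lowest to the highest ratio among the 4 pairs of samples. The genotypes are apart for Parp14 (4.18 in control, 3.37 in KO), Dtx3l (3.20 and 2.54) and Parp9 (3.33 and 2.79), and lie together near 0 for Parp1.

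Levels of different genes were compared per kilobase of the exon length given in the files. Parp1 led in all 4 groups. In untreated control cells it stood at 849 normalized counts per kilobase, followed by Parp12 at 193, Parp2 at 157 and Parp10 at 127. Parp9 and Dtx3l came next at 72.5 and 71.3, with overlapping samples. Parp11, Parp14 and Parp8 were the lowest at 42.7, 41.3 and 41.2, and Parp14 and Parp8 did not differ beyond their spread.

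With IFNγ, Parp14 moved from the eighth to the third place in control cells. Parp1 was at 780 per kilobase, Parp12 at 775, Parp14 at 746, Parp9 at 728, Dtx3l at 653 and Parp10 at 525. Samples of Parp14 and Parp9 overlapped. Parp2 (164), Parp11 (91.7) and Parp8 (62.0) lay well below. In treated KO cells Parp1 was again the highest, at 779, and the interferon-responsive genes lay further below it. Parp12 was at 605, Parp9 at 501, Parp14 at 440, Dtx3l at 428 and Parp10 at 424. Parp14, whose samples overlapped those of Parp9 in treated control cells, was below Parp9 in both treated KO samples.

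The summed level of the 9 genes per kilobase was 1595 ± 12.8 (SD, 2 samples) in untreated control and 1581 ± 32.5 in untreated KO cells. With IFNγ it was 4525 ± 19.6 in control and 3456 ± 6.69 in KO cells. Parp1 made up 53.2% of the sum in untreated control cells and 17.2% with IFNγ, against 53.7% and 22.5% in KO cells. Parp14 made up 2.59% and then 16.5% in control cells, against 2.69% and 12.7% in KO cells.

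**Figure D4:**
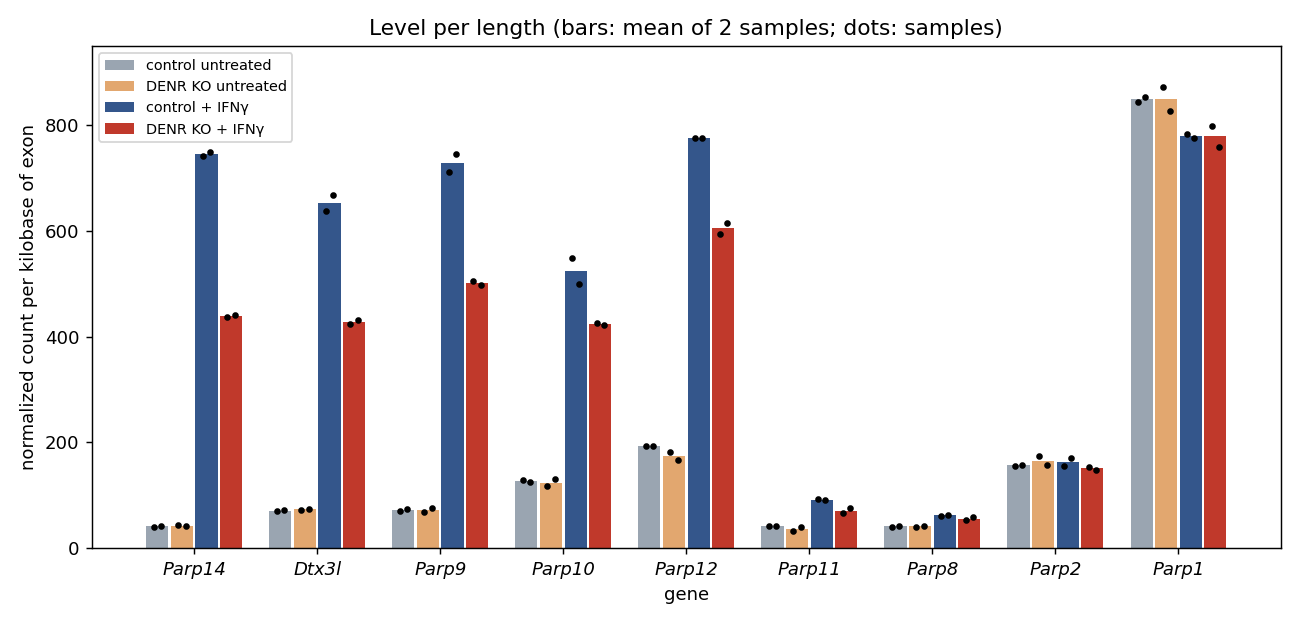
Normalized counts per kilobase of exon for each gene and group; bars start at 0 and show the mean of 2 samples, and dots are the samples. In treated control cells Parp12, Parp14 and Parp9 stand close to Parp1, and in treated KO cells they stand below it.

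The partners Parp9 and Dtx3l stayed near equal levels per kilobase. The ratio of Parp9 to Dtx3l was 1.002 and 1.03 in the untreated control samples and 0.942 and 1.02 in the untreated KO samples. With IFNγ it was 1.11 in both control samples and 1.19 and 1.15 in the KO samples. The ratio of Parp14 to Dtx3l was near 0.58 in untreated control cells, 1.16 and 1.12 in treated controls, and 1.03 and 1.02 in treated KO cells. In untreated KO cells it was 0.602 and 0.550.

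On chromosome 16 the response was seen in the 3 members and not in the expressed genes beside them. Hspbap1, next to Parp14, had a log2 ratio of IFNγ over untreated of 0.09 in control and -0.05 in KO cells. Kpna1, an importin next to Parp9, had -0.04 and 0.09. Neither passed for the KO effect with IFNγ (adjusted p = 0.88 for Hspbap1 and 0.62 for Kpna1 by limma). The annotated start of Parp14 lies 67.6 kb from that of Dtx3l.

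**Figure D5:**
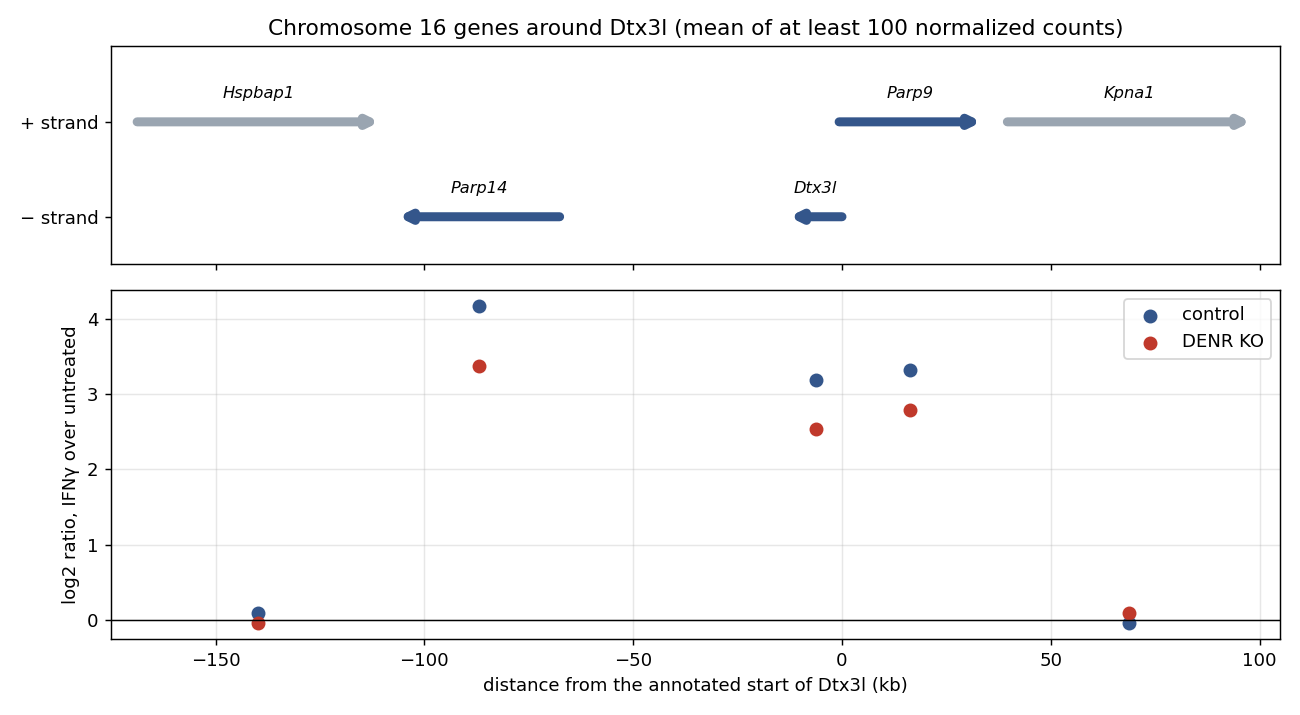
Map of the chromosome 16 genes averaging 100 normalized counts or more, with distance in kb from the annotated start of Dtx3l, arrows pointing along transcription and members in blue; below, the log2 ratio of IFNγ over untreated at each gene's midpoint. Parp14, Dtx3l and Parp9 lie between 2.54 and 4.18, and Hspbap1 and Kpna1 near 0.

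Some reads of these genes may belong to a neighbour. For Parp9 and Dtx3l, on opposite strands, strand handling was not stated. Parp9 and Dtx3l share 458 exon bases, which is 9.40% of the exon bases of Parp9 and 8% of those of Dtx3l. Parp10 shares 205 exon bases (4.795% of its own) with Plec, a cytoskeletal linker gene at between 30008 and 53299 normalized counts. Both lie on the minus strand, and they overlap at the annotated start of Plec. Plec had a log2 fold change of 0.30 in KO cells with IFNγ (adjusted p = 0.010 by limma). The part of shared reads in the Parp10 values was not tested. Among the genes with listed expression values, none shares an exon base with Parp14, Parp12, Parp11, Parp8 or Parp2.

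The genes whose pattern was most like those of the chromosome 16 members were read from Pearson correlations of log2 values over the 8 samples, among 10326 genes. These points share libraries and fall into treated and untreated samples, so the values are a description. For Parp14 they were Dtx3l (r = 0.9997), the chemokine Cxcl10 (0.9997) and the transcription factor Irf1 (0.9994). For Dtx3l they were Parp14, the chemokine Cxcl1 (0.9997) and Parp9 (0.9994), and for Parp9 they were Dtx3l, the antiviral enzyme Oas3 (0.9993) and the cytokine receptor chain Il15ra (0.9993).

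The other genes of the pathway came from 4 lists, read against the 2.25% of all genes tested that were lower with IFNγ. Of 8 further PARP family genes (Parp3, Parp4, Parp6, Parp16, Tiparp, Tnks, Tnks2 and Zc3hav1), 1 was lower with IFNγ by limma and none was higher, and the median log2 fold change was 0.01. Of 7 tested genes among the ADP-ribose erasers and cofactors, 1 was lower. No gene of 3 tested other deltex ligases passed, also at an unadjusted p under 0.05, and 1 of 7 tested genes of NAD synthesis was lower. None of these 25 genes passed in untreated cells or for the difference between treatments by limma, edgeR or DESeq2. At an unadjusted p under 0.05 by limma there were 3 of them in untreated cells and 4 for the difference. Untreated, 1 further PARP gene was lower, and 1 eraser or cofactor and 1 deltex ligase were higher. For the difference, 1 further PARP gene was higher, and 1 further PARP gene, 1 eraser or cofactor and 1 NAD synthesis gene were lower. Among 13998 genes, the limma p-value of 0.037 for Trpt1 untreated ranked 1003. The limma p-value of 0.048 for Plec in the difference ranked 778, so many genes reached this threshold.

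Trpt1, a tRNA phosphotransferase that uses NAD+, had 76.8 and 84.6 normalized counts in treated controls and 45.3 and 45.9 in treated KO cells. Its log2 fold change was -0.81 with an adjusted p of 0.044 by limma, and this call was lost without any 1 of the 4 samples (adjusted p from 0.071 to 0.23), with no filter on low values (0.053) and in DESeq2 (0.33). Untreated samples had 66.4 and 64.3 in controls and 97.1 and 84.5 in KO cells, so the direction there was the other way. The difference between treatments was -1.27 (95% interval from -1.89 to -0.66) and did not pass (adjusted p = 0.057 by limma).

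Parp3 and Nampt were singled out after their values were seen, as the genes of their lists that passed. Parp3, a mono-ADP-ribosyltransferase of DNA repair, had 3085 and 2766 normalized counts in treated controls and 2293 and 2182 in treated KO cells (log2 fold change -0.38, adjusted p = 5.8e-04 by limma). Untreated Parp3 overlapped between genotypes, with 1350.2 and 1172 normalized counts in controls and 1253 and 1256 in KO cells. Nampt, the rate-limiting enzyme of NAD+ salvage, had 3345 and 3519 normalized counts in treated controls and 2666 and 2861 in treated KO cells (log2 fold change -0.31, adjusted p = 0.0025 by limma). Its untreated samples lay between 1574 and 1658. For neither gene did the difference between treatments pass (adjusted p = 0.17 for Parp3 and 0.084 for Nampt by limma).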

How the data were processed

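RNA-seq tables of 8 MC38 samples were used, 1 table for the treated and 1 for the untreated cells. Per the labels, the submitters' processing notes name HISAT2 2.0.5, StringTie 1.3.3b, featureCounts 1.5.0-p3 and DESeq2 1.20.0. The deposited values are a normalized signal: the authors divided gene read counts by 1 size factor per sample within each table, and 100% of values gave whole reads (tolerance 0.001). The notes name mm9, but all 9 genes have the coordinates of GRCm38 (GENCODE vM21). The authors' columns of fold changes and p-values were not used.

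Genes with a mean of at least 10 were fitted with limma 3.58.1 (R 4.3.3, trend and robust moderation) on log2(value + 1), per table and, for the interaction, over 8 samples. Columns were assigned by sample titles. The main alternatives were edgeR 4.0.16 and DESeq2 1.42.0 on recovered reads, other pseudocounts and filters, and leaving out each sample. The fit was tested on simulated data. Named genes were the 9 members, list genes passing with a log2 fold change beyond 0.5 or for the interaction, neighbours, the most alike genes, and Parp3 and Nampt, chosen after their values were seen. Members and lists were chosen with earlier results of these data known. Replicates differed by more than sampling noise in every group (mean chi-square per gene from 4.05 to 7.23).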

Additional observations from a re-analysis of the deposited data

Results flagged for a closer look

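The DENR KO effect with IFNγ differed from the effect in untreated cells, by the limma interaction over all 8 samples, for 3 of the 9 genes: Parp14 (-0.80), Dtx3l (-0.66) and Parp9 (-0.54), on the log2 scale. With IFNγ both KO samples of each gene lay below both control samples, while their untreated log2 fold changes were 0.04, 0.05 and -0.00094. The 3 genes were measured in the same 8 samples, so the 3 values are not independent of each other. Over 13998 genes, 0.429% passed in this direction by limma. The Parp9 call was lost when some single samples were left out, and those of Parp14 and Dtx3l were not.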

How the results depend on the processing

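Parp14, Dtx3l, Parp9 and Parp12 kept their lower call with IFNγ under every alternative except limma without trend and robust moderation, which called 0 members and 0 genes in either direction in all 3 comparisons; the cause was not tested. DESeq2 called 134 genes higher with IFNγ (251 in limma), 37 higher untreated (60) and 5 higher for the interaction (3). The replicate numbers were used as a block as a trial only, since same-numbered samples deviated together with r = 0.22 with IFNγ and 0.047 untreated over only 2 pairs and no label ties them; with the replicate block 729 genes were lower and 726 higher with IFNγ, 89 and 168 untreated, and 120 and 30 for the interaction, and it changed no call of a member. Without 1 sample in turn, genes called higher with IFNγ numbered 146 to 341, untreated lower 15 to 41 and higher 20 to 61, and for the interaction lower 35 to 81 and higher 1 to 12, while members lower with IFNγ numbered 4 to 6. Values near 0 changed sign. Parp1 untreated was -0.027 with samples centred on their median and -0.0011 in DESeq2, and its interaction was 0.012 centred and 0.0019 in edgeR. Untreated Parp8 was -0.018 centred and untreated Parp9 was 0.0013 in edgeR. Leaving out 1 sample gave Parp1 -0.038 to 0.034 with IFNγ, -0.039 to 0.039 untreated and -0.041 to 0.037 for the interaction. It also gave, untreated, Parp2 -0.0026 to 0.15, Parp8 -0.040 to 0.058, Parp9 -0.086 to 0.084 and Parp10 -0.11 to 0.038, and Parp11 -0.31 to 0.00030 for the interaction. With 2 samples per group, small differences could not be resolved.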
